A study of Mus musculus with 7 samples.

Results

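Genes of the major histocompatibility complex (MHC) and of antigen presentation were examined in mouse glomeruli, the filtering units of the kidney. Members were chosen by name: every symbol that starts with H2-, together with 16 named genes of peptide supply, loading and regulation. They made up 36 of the 12958 symbols measured, 21 of them H2- symbols and 15 of them named genes; Psmb9 was not analysed here. H2-Ke6 carries the prefix from its place in the complex and encodes a steroid dehydrogenase.

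RNA was taken from glomeruli isolated from 7 male BALB-C mice at 14 weeks of age. Both groups had received doxycycline, in food and in water, over 6 weeks that began when they were 8 weeks old. The 3 knockdown mice carried an siRNA transgene against Shroom3, an actin-binding protein of cell junctions, and the 4 control mice were littermates without it. The promoter that drives the siRNA, and so the cells it acts in, was not given in the labels.

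MHC class I molecules sit on most cells. A heavy chain pairs with beta-2 microglobulin, the product of B2m, and holds a peptide that the proteasome cut and the transporter made by Tap1 and Tap2 carried into the endoplasmic reticulum. There tapasin, calreticulin and the disulfide isomerase Pdia3 help to load it. Class II molecules are made mainly by professional antigen-presenting cells, with the invariant chain Cd74 and the transactivator Ciita, while Nlrc5 is a transactivator of class I genes. In the kidney, endothelial cells and resident leukocytes are known to carry MHC molecules. The complex is highly polymorphic: BALB/c mice carry the haplotype d, whereas the genome build mm10 comes from C57BL/6J mice of the haplotype b. How reads of the d alleles were placed is not known here, and the haplotype of each mouse was not examined. Mapping, haplotype and expression cannot be told apart in the H2- values below.

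Class I promoters are known for an element of the NF-kappa B family, a CCAAT box and a CREB-type site, and some hold a response element of the interferon regulatory factors. The 250 bases before the transcription start are shown for members chosen with their log2 fold changes known, positive for some and negative for others. Of the genes shown, H2-K1 and H2-Q7 did not pass the test. The sequences are from RefSeq on build GRCm38.p6 and run 5′ to 3′ on the strand of the gene. H2-K1 lies on the minus strand (chr17:34000348-34000597), and the first of its listed starts is used. On the plus strand lie H2-D1 (chr17:35262844-35263093), H2-Q6 (chr17:35424600-35424849), H2-Q7 (chr17:35438905-35439154) and B2m (chr2:122147437-122147686). Capitals mark matches on either strand to the 4 motifs searched.
H2-K1: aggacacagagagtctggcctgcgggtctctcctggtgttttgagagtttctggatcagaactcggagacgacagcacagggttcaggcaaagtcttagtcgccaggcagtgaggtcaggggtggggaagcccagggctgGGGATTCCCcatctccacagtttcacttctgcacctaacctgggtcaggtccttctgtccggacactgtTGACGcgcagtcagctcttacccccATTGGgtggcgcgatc
H2-D1: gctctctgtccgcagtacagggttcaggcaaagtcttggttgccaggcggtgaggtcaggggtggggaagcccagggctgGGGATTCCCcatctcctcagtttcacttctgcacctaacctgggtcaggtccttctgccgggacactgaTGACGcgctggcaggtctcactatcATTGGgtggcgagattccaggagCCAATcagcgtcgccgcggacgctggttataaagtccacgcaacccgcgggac
H2-Q6: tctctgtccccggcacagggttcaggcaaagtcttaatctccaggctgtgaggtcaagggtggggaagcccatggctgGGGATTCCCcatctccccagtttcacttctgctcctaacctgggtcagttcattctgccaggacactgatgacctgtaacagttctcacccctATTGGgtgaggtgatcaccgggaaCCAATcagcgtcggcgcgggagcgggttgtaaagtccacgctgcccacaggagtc
H2-Q7: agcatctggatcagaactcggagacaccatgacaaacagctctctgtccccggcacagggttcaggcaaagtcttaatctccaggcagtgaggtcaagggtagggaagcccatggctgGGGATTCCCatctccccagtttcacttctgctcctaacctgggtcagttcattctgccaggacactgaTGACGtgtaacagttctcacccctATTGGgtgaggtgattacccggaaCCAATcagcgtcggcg
B2m: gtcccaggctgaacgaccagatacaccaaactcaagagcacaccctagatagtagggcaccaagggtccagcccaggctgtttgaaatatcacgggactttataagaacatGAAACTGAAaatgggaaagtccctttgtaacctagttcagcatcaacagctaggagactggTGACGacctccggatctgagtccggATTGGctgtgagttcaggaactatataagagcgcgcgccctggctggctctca

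The kappa B element, searched as GGGATTCCC, stood in the windows of 4 of the 23 members found in the RefSeq table: H2-K1, H2-D1, H2-Q6 and H2-Q7. Of all 32851 windows of the same length, 0.301% held it. Members are counted by gene here and below, some with more than 1 window, while these shares are by window. The 4 are related class I genes with similar windows, so their matches are not separate observations. Its first base lay 110 bases before the start of H2-K1, 170 before that of H2-D1, 172 before that of H2-Q6 and 132 before that of H2-Q7. The core of the interferon-stimulated response element, searched as GAAANNGAA, was found in 4 members (B2m, Erap1, H2-T22 and H2-T23) and in 7.13% of all windows. Other spellings of the element were not searched, so a window without a match is not shown to lack it. The windows of H2-K1, H2-D1, H2-Q6 and H2-Q7 share agtttcacttct, which this spelling does not match. A CCAAT box was found in 18 members and 33.8% of all windows. The sequence TGACG, a core of CREB-type sites, was found in 12 members and 17.8% of all windows. Of the windows shown, those of H2-K1, H2-D1, B2m and H2-Q7 hold it and that of H2-Q6 does not. No motif was tested against the log2 fold changes. These are matches of letters in a C57BL/6J sequence, not bound sites.

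Each library gave 1 log-scale value per symbol, read here as log2. The tables hold no counts, so the depth behind a value is unknown, and values are not known to be scaled by gene length, so levels are compared between libraries only. All 8 listed markers of podocytes, 8 of glomerular endothelium and 6 of mesangium were measured, and so were the 8 of proximal tubule and 7 of distal segments. Log2 fold changes of the endothelial list were negative for 8 of 8 genes (median -0.23), and none passed. Emcn (-0.41) was lower without overlap, 1 of 8 beside 7.55% of all genes. Of the podocyte markers 6 were negative and 2 positive, with a median of -0.17, and none passed. Ptpro (-0.47) and Synpo (-0.32) were lower without overlap, 2 of 8 beside 7.55% of all genes. Sfrp2 and Serpine2 of the mesangial list and Cyp2e1, Slc22a12 and Slc5a2 of the proximal tubule list passed as lower in knockdown. These are 2 of 6 and 3 of 8 genes, beside 2.02% of all genes. Slc4a1 and Atp6v1g3 of the distal list passed as higher, 2 of 7 beside 0.996%. Negative log2 fold changes were found for 5 of 6 mesangial genes (median -0.13) and 7 of 8 proximal tubule genes (median -0.39). In the distal list 6 of 7 were positive (median 0.27). With the style of the library titles, described next, as a covariate, Cyp2e1, Slc22a12 and Slc4a1 still passed, while Sfrp2 (adjusted p = 0.0644, limma), Serpine2 (adjusted p = 0.0967, limma), Slc5a2 (adjusted p = 0.1004, limma) and Atp6v1g3 (adjusted p = 0.0870, limma) did not. The part of these cells in the values of the members was not tested. In bulk RNA, fewer cells of a type and less RNA per cell cannot be told apart. Shroom3 was 10.86 ± 0.06 (SD, n = 3) against 11.05 ± 0.22 (SD, n = 4), a difference that missed the threshold (limma, adjusted p = 0.417), so the target does not check the labels. Titles came in 2 styles: 5 libraries begin with G (2 knockdown, 3 control), and 2 begin with CB6 (knockdown replicate 3 and control replicate 4). For every gene the mean of the CB6 pair lay within 0.0396 of the mean of the other 5 libraries. If the values were adjusted for title style before deposit, which no label states, p-values from groups alone are too small; adjusted p-values with title style as a covariate are therefore given for the members and genes called.

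Of the 36 members, 4 passed the test: B2m and H2-D1 rose, and H2-Q6 and H2-Q8 fell (limma across all genes, Benjamini-Hochberg adjusted p under 0.05). That is 11.1% of the members, beside 3.02% of all genes. The rises were 2 of 36 beside 0.996% of all genes, and the falls 2 of 36 beside 2.02%. Knockdown and control libraries did not overlap for 8 members (22.2%), near the 18.4% of all genes. Of these 8, 6 were higher (10.8% of all genes) and 2 lower (7.55%). A positive log2 fold change was found for 25 of 36 members, beside 56.2% of all genes, and the median was 0.07 beside 0.02. An unadjusted p under 0.05 was reached by 7 members, beside 18.4% of all genes. Leaving aside H2-Q6 and H2-Q8, 2 of 34 members passed (5.88%). The fit with title style kept H2-Q6 and H2-Q8, beside 1.47% of all genes, and within the libraries titled G 0 members passed, beside 0.309%. Without knockdown replicate 2 the count of members was also 0, and it was 1 without knockdown replicate 3 (B2m) or control replicate 4 (H2-Q6). It was 2 (H2-Q6 and H2-Q8) in the fits that left out knockdown replicate 1 or either of control replicates 1 and 2.

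**Figure D1:**
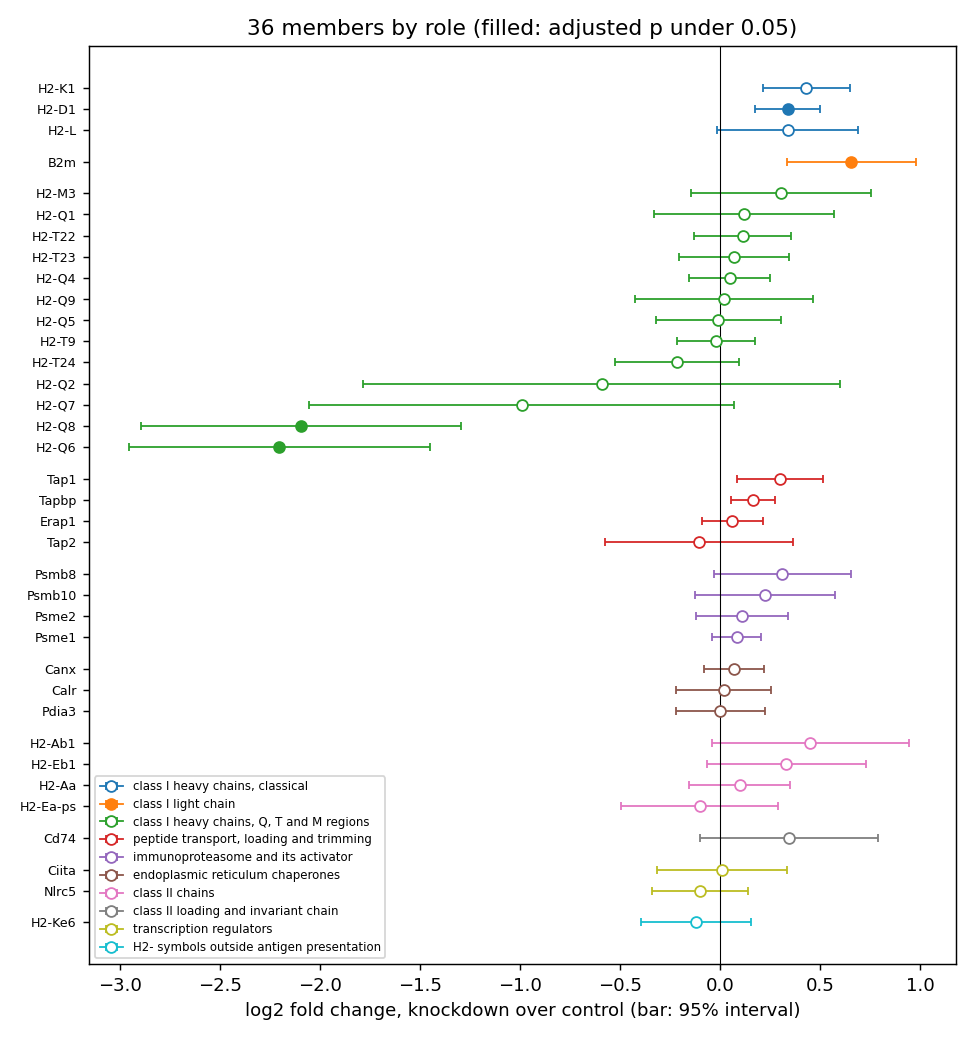
Log2 fold change of knockdown over control (x axis) for each of the 36 members, grouped and coloured by role, with 95% intervals from limma as bars; filled points passed the adjusted threshold of 0.05. H2-Q6 and H2-Q8 stand apart at -2.20 and -2.09, and B2m is the highest at 0.66.

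The 3 classical class I heavy chains, which present peptides to CD8 T cells, had positive log2 fold changes, and 1 of them rose, beside 0.996% of all genes. H2-D1 (ENSMUSG00000073411.11; GRCm38 chromosome 17, 35262730 to 35267499) held 11.65, 11.73 and 11.73 in the knockdown and 11.36, 11.27, 11.54 and 11.30 in the control libraries. The groups did not overlap, and control replicate 3 came closest to the knockdown libraries. The means were 11.70 ± 0.05 (SD, n = 3) against 11.37 ± 0.12 (SD, n = 4), a 1.26-fold rise (log2 fold change 0.34, SE 0.07, 95% interval 0.17 to 0.50; adjusted p = 0.0465, limma). Its adjusted p was 0.104 with title style as a covariate. Of the 7 fits that left out a library, H2-D1 passed in the one without control replicate 3 (adjusted p = 0.0139, limma), with log2 fold changes of 0.30 to 0.39 over the 7.

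H2-K1 (ENSMUSG00000061232.16; chromosome 17, 33996017 to 34000347) held 7.48, 7.34 and 7.37 in the knockdown and 6.94, 7.01, 6.96 and 6.94 in the control libraries. The controls lay close together, and every knockdown library stood above them. The log2 fold change of 0.43 (SE 0.09, 95% interval 0.21 to 0.65) missed the threshold (adjusted p = 0.0521, limma). It was 0.44 within the libraries titled G and 0.42 within the CB6 pair. H2-K1 passed in 1 of 14 alternatives, the fit without the intensity trend (adjusted p = 0.0189, limma).

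H2-L, a heavy chain gene of the d haplotype with no position in the annotation used, held 9.56, 9.53 and 9.61 in the knockdown and 9.11, 8.97, 9.69 and 9.14 in the control libraries. Control replicate 3 was the highest of all libraries, and the other controls lay below every knockdown library. It differed by 0.34 on the log2 scale (95% interval -0.02 to 0.69; adjusted p = 0.291, limma). Without control replicate 3 it was 0.49 and passed (adjusted p = 0.0205, limma). Heavy chains share sequence, so how reads were divided among them is uncertain: 12.8% of the 50-base stretches of H2-D1 transcripts and 9.63% of those of H2-K1 also occur in transcripts of another gene. H2-L had no transcript in that annotation, so stretches shared with it are not counted.

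B2m, the light chain of all these molecules, rose as well (ENSMUSG00000060802.8; chromosome 2, 122147686 to 122153083). It held 14.94, 14.65 and 14.39 in the knockdown and 14.04, 14.06, 13.74 and 14.17 in the control libraries. The groups did not overlap; knockdown replicate 3 was the lowest knockdown library and control replicate 4 the highest control, and these form the CB6 pair. The means were 14.66 ± 0.27 (SD, n = 3) against 14.00 ± 0.18 (SD, n = 4), a 1.57-fold rise (log2 fold change 0.66, SE 0.14, 95% interval 0.33 to 0.98; adjusted p = 0.0488, limma). The difference was 0.84 within the libraries titled G and 0.22 within the CB6 pair, and the adjusted p was 0.0961 with title style as a covariate. Of the 7 fits that left out a library, B2m passed in the one without knockdown replicate 3 (adjusted p = 0.047, limma), with log2 fold changes of 0.52 to 0.79 over the 7. None of its 50-base stretches occurs in another gene.

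**Figure D2:**
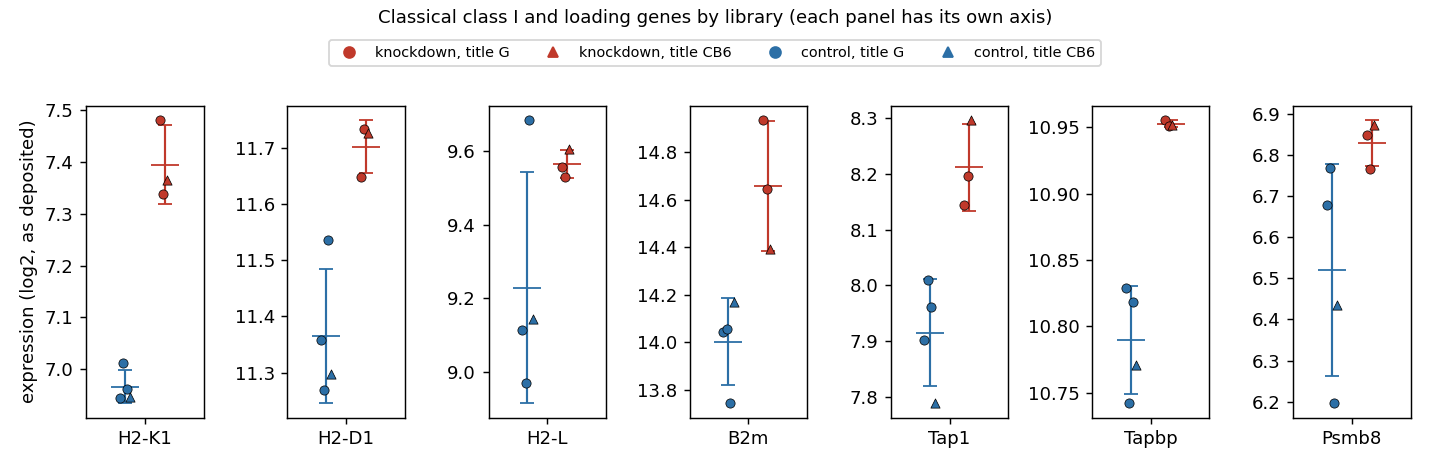
Deposited log2 expression (y axes, each panel on its own scale that does not start at 0) of 7 class I pathway genes per library, control in blue and knockdown in red, circles for titles with G and triangles for CB6, with group means as lines and 1 SD as bars. H2-K1, H2-D1, B2m, Tap1 and Tapbp show no overlap of the groups, and control replicate 3 is the highest library for H2-L.

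The Q, T and M regions of the complex hold class I genes with fewer alleles than the classical ones, and H2-Q6 to H2-Q9 are genes of the Qa-2 antigens. Which of these genes BALB/c mice carry was not examined. Of 13 measured, 2 fell, beside 2.02% of all genes, and none rose; the 2 are H2-Q6 and H2-Q8, whose values were nearly equal in each library. H2-Q6 (ENSMUSG00000073409.12; chromosome 17, 35424850 to 35430055) held 5.77, 5.33 and 5.42 in the knockdown and 7.22, 7.07, 8.45 and 8.11 in the control libraries. Every knockdown library lay below every control library, and control replicates 3 and 4 stood above control replicates 1 and 2. The means were 5.51 ± 0.23 (SD, n = 3) against 7.71 ± 0.67 (SD, n = 4), a level 4.61-fold lower in knockdown (log2 fold change -2.20, SE 0.33, 95% interval -2.96 to -1.45; adjusted p = 0.0116, limma). With title style as a covariate the adjusted p was 0.0216. It did not pass without knockdown replicate 2 (adjusted p = 0.0693, limma) or without knockdown replicate 3 (adjusted p = 0.0529, limma).

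H2-Q8, with no position in the annotation used, held 6.08, 5.32 and 5.50 in the knockdown and 7.21, 7.10, 8.44 and 8.15 in the control libraries. The groups did not overlap, and the libraries stood in the same order as for H2-Q6. The log2 fold change was -2.09 (SE 0.35, 95% interval -2.89 to -1.30; adjusted p = 0.0192, limma), and the adjusted p was 0.0365 with title style as a covariate. It did not pass without knockdown replicate 2 (0.0982), knockdown replicate 3 (0.0804) or control replicate 4 (0.0584; adjusted p, limma). Within a library H2-Q6 and H2-Q8 differed by 0.00929 to 0.311, so the pair is counted here as 2 symbols but not as 2 separate observations.

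H2-Q7, next to H2-Q6 (chromosome 17, 35439155 to 35443773), held 5.01, 4.63 and 3.85 in the knockdown and 4.66, 4.79, 6.23 and 6.28 in the control libraries. Control replicates 3 and 4 were again the high ones, while control replicates 1 and 2 lay within the range of the knockdown libraries. The log2 fold change of -0.99 (95% interval -2.06 to 0.07) did not pass (adjusted p = 0.298, limma). It was -0.41 within the libraries titled G and -2.43 within the CB6 pair.

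H2-Q9 held 7.89, 7.59 and 7.20 in the knockdown and 7.53, 7.27, 7.46 and 7.90 in the control libraries. The groups overlapped, with a log2 fold change of 0.02 (95% interval -0.43 to 0.46) that turned negative in the fits that left out knockdown replicate 1 or either of control replicates 2 and 3. How reads were divided among these genes is uncertain too: 35% of the 50-base stretches of H2-Q6 transcripts occur in another gene, 13.9% in H2-Q7. The share was 26.5% for H2-Q7, 36.4% for H2-Q4, 36.4% for H2-Q5 and 53.5% for H2-T22. H2-Q8, H2-Q9, H2-L and H2-T9 had no transcript in that annotation, so stretches shared with them are not counted.

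**Figure D3:**
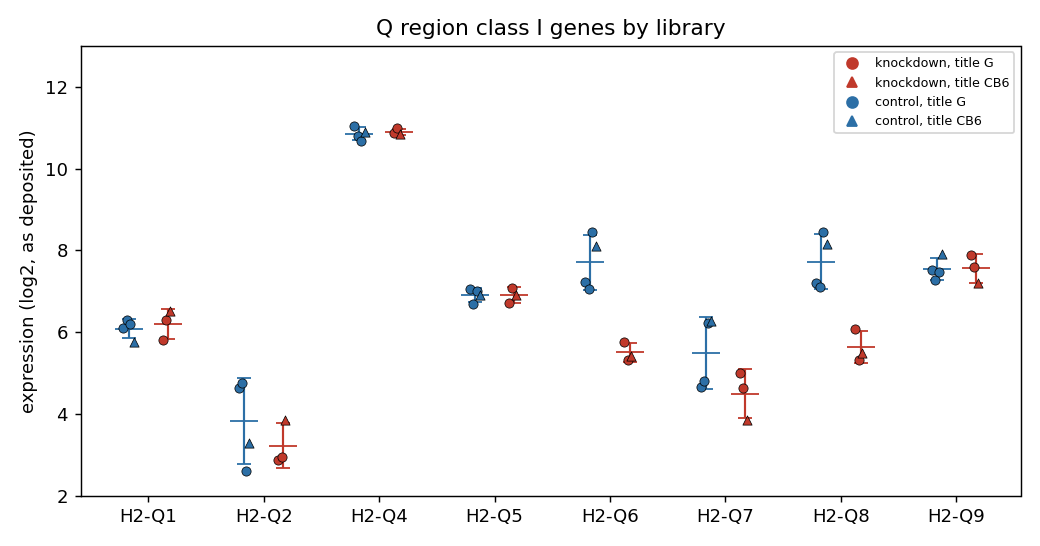
Deposited log2 expression (y axis) of the measured Q region genes per library, control in blue and knockdown in red, circles for titles with G and triangles for CB6, with group means as lines and 1 SD as bars. For H2-Q6 and H2-Q8 every knockdown library lies below every control library, and for the other genes the groups overlap.

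The other genes of these regions had overlapping groups, and none passed. H2-Q4 held 10.86, 10.98 and 10.85 in the knockdown and 11.04, 10.80, 10.67 and 10.89 in the control libraries, a log2 fold change of 0.05 (95% interval -0.16 to 0.25). H2-T23, the gene of Qa-1, differed by 0.07 on the log2 scale, and by -0.06 within the libraries titled G. H2-M3, which presents formylated peptides, differed by 0.30 (95% interval -0.15 to 0.76). Log2 fold changes were 0.11 for H2-T22, -0.02 for H2-T9, -0.22 for H2-T24, 0.12 for H2-Q1 and -0.01 for H2-Q5. H2-Q2 lay near the lowest values of the tables, with 2.87, 2.96 and 3.85 in the knockdown and 4.63, 4.76, 2.61 and 3.28 in the control libraries. Here control replicates 1 and 2 were the high ones, unlike for H2-Q6 and H2-Q7, and the log2 fold change was -0.59 (95% interval -1.79 to 0.60).

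Among the 4 genes of peptide transport, loading and trimming none passed, and for 2 the groups did not overlap, both higher, beside 10.8% of all genes. Tap1 held 8.14, 8.20 and 8.30 in the knockdown and 7.90, 8.01, 7.96 and 7.79 in the control libraries (log2 fold change 0.30, 95% interval 0.08 to 0.51; adjusted p = 0.14, limma). Tapbp, the gene of tapasin, which bridges the transporter and the empty class I molecule, held 10.96, 10.95 and 10.95 in the knockdown and 10.83, 10.74, 10.82 and 10.77 in the control libraries (log2 fold change 0.16, 95% interval 0.05 to 0.27; adjusted p = 0.117, limma). For both, every knockdown library was above every control library. Tap2 held 7.63, 7.48 and 7.74 in the knockdown and 7.69, 7.32, 8.27 and 7.62 in the control libraries, with control replicate 3 the highest and a log2 fold change of -0.11 (95% interval -0.58 to 0.36). Erap1, a peptidase that trims peptides to length, held 11.014, 10.851 and 11.011 in the knockdown and 10.999, 10.930, 10.830 and 10.835 in the control libraries. Its groups overlapped, and the log2 fold change was 0.06 (95% interval -0.09 to 0.21).

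The immunoproteasome swaps catalytic subunits of the standard proteasome for others, and Psme1 and Psme2 encode an activator. None of the 4 measured genes passed, and all 4 log2 fold changes were positive. Psme1 held 10.64, 10.72 and 10.64 in the knockdown and 10.63, 10.60, 10.52 and 10.59 in the control libraries; the groups were separate by a narrow gap (10.8% of all genes were higher without overlap), with a log2 fold change of 0.08 (95% interval -0.04 to 0.20). Psmb8, a catalytic subunit, held 6.85, 6.77 and 6.87 in the knockdown and 6.68, 6.77, 6.20 and 6.44 in the control libraries, with control replicates 3 and 4 the lowest and a log2 fold change of 0.31 (95% interval -0.03 to 0.65). Psmb10, another catalytic subunit, differed by 0.22 (95% interval -0.13 to 0.57), and Psme2 by 0.11 (95% interval -0.12 to 0.34). Of 10 genes of the standard proteasome and its other activators none passed. Their log2 fold changes were negative for 7 and positive for 3, with a median of -0.04. Psme4 differed by 0.05 and Psme3 by 0.16, and Psme3 was higher without overlap, 1 of 10 beside 10.8% of all genes.

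The 3 chaperones of the endoplasmic reticulum did not pass, and their groups overlapped. Calr, the gene of calreticulin, held 14.35, 14.13 and 14.00 in the knockdown and 14.16, 14.14, 13.97 and 14.29 in the control libraries, a log2 fold change of 0.02 (95% interval -0.22 to 0.25). Canx, the gene of calnexin, differed by 0.07 (95% interval -0.08 to 0.22), and Pdia3 by 0.00 (95% interval -0.22 to 0.22). Of 10 other genes of loading and quality control none passed, with a median of -0.08; Hsp90b1 differed by 0.04 and Hspa5 by -0.12.

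No class II gene passed. H2-Ab1, the beta chain of I-A, held 9.13, 8.91 and 8.31 in the knockdown and 8.08, 8.19, 8.33 and 8.73 in the control libraries. Knockdown replicates 1 and 2 were the highest libraries, but in the CB6 pair the control was the higher one. The log2 difference was 0.82 within the libraries titled G and -0.42 within the CB6 pair, and the fit gave 0.45 (95% interval -0.04 to 0.94; adjusted p = 0.309, limma). Cd74 held 9.53, 9.14 and 8.98 in the knockdown and 8.39, 8.92, 9.12 and 9.06 in the control libraries. Knockdown replicate 1 was the highest library and control replicate 1 the lowest, with overlap between; the log2 difference was 0.53 in the libraries titled G and -0.08 in the CB6 pair. The fit gave 0.34 (95% interval -0.10 to 0.79; adjusted p = 0.391, limma).

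The other class II chains had overlapping groups. H2-Aa, the alpha chain of I-A, held 8.03, 7.86 and 7.79 in the knockdown and 7.60, 7.82, 7.88 and 7.88 in the control libraries, a log2 fold change of 0.10 (95% interval -0.15 to 0.35). H2-Eb1, the beta chain of I-E, held 6.87, 6.62 and 6.82 in the knockdown and 6.07, 6.80, 6.55 and 6.34 in the control libraries, a log2 fold change of 0.33 (95% interval -0.07 to 0.73). H2-Ea-ps is annotated as a polymorphic pseudogene, since mice of the haplotype b do not make the alpha chain of I-E. It held 6.48, 6.59 and 6.11 in the knockdown and 6.42, 6.20, 6.58 and 6.79 in the control libraries, a log2 fold change of -0.10 (95% interval -0.50 to 0.29).

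The transactivators did not pass. Ciita held 7.44, 7.23 and 7.55 in the knockdown and 7.38, 7.70, 7.26 and 7.25 in the control libraries, with overlapping groups and a log2 fold change of 0.01 (95% interval -0.32 to 0.34). Nlrc5 held 9.07, 9.37 and 9.34 in the knockdown and 9.46, 9.21, 9.49 and 9.30 in the control libraries, again with overlap and a log2 fold change of -0.10 (95% interval -0.34 to 0.14). H2-Ke6, outside antigen presentation, held 7.78, 7.56 and 7.85 in the knockdown and 8.05, 7.88, 7.73 and 7.75 in the control libraries, a log2 fold change of -0.12; 70.5% of its 50-base stretches occur in Gm20427.

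Interferon gamma is known to raise class I and class II expression through a receptor kinase pathway and the interferon regulatory factors. None of the 11 measured genes of this list passed. Log2 fold changes were positive for 5 and negative for 6, with a median of -0.01. Without overlap 2 were higher, beside 10.8% of all genes, and 1 lower, beside 7.55%. The lower one was the receptor gene Ifngr1 (log2 fold change -0.32, adjusted p = 0.065, limma). Irf1, an interferon regulatory factor, was among the higher ones (log2 fold change 0.33, adjusted p = 0.184, limma). Socs3 had the largest log2 fold change of the list (0.61, adjusted p = 0.168, limma), with overlapping groups. Jak1, a kinase bound to the interferon gamma receptor, differed by -0.04. Of 12 promoter factors of the RFX, NF-Y, CREB and NF-kappa B kind and their coactivators none passed, with a median of 0.11; Crebbp differed by 0.17 and Ep300 by 0.11.

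In the endosomal route, where class II peptides are made, 1 of 8 measured genes rose, beside 0.996% of all genes. None fell, beside 2.02%. Log2 fold changes were negative for 6 of the 8 and positive for 2, with a median of -0.06. Ifi30, a lysosomal thiol reductase that unfolds antigens, held 10.05, 10.11 and 10.07 in the knockdown and 9.75, 9.81, 9.75 and 9.71 in the control libraries. The groups were well apart, with a log2 fold change of 0.32 (SE 0.06, 95% interval 0.19 to 0.45; adjusted p = 0.0239, limma) and an adjusted p of 0.0794 with title style as a covariate. The protease gene Ctsl was lower without overlap (log2 fold change -0.19, adjusted p = 0.144, limma), 1 of 8 beside 7.55% of all genes. Of 6 other class I-like and co-stimulatory genes none passed, with a median of 0.14; Fcgrt, the neonatal Fc receptor, differed by 0.11 and Mr1 by 0.17.

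**Figure D4:**
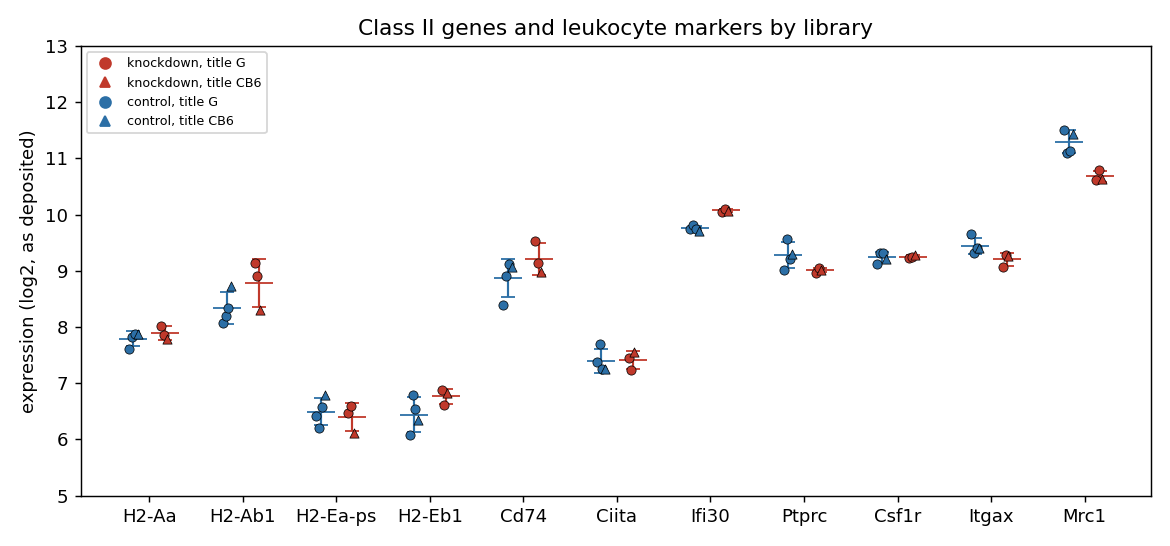
Deposited log2 expression (y axis) of class II members, Ciita, Ifi30 and 4 leukocyte markers per library, control in blue and knockdown in red, circles for titles with G and triangles for CB6, with group means as lines and 1 SD as bars. H2-Ab1 and Cd74 overlap between the groups, while Ifi30 is higher and Mrc1 lower in every knockdown library.

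Leukocytes are the main makers of class II molecules, and 19 of 49 listed leukocyte markers were measured. These were 7 of 16 for macrophages and monocytes, 7 of 10 for dendritic cells and 3 of 5 for all leukocytes. For B cells 1 of 8 was measured (Cd79a) and for T and NK cells 1 of 10 (Lck). Their summed level on the log2 scale ran from 13.62 to 13.74 in knockdown and from 13.77 to 14.04 in control libraries, lower in every knockdown library. Mertk and Mrc1 make up most of this sum. Which cells their RNA came from was not examined, so the sum is not a measure of leukocytes alone. The macrophage and monocyte sum ran from 13.14 to 13.30 in knockdown and from 13.28 to 13.62 in control libraries, and the dendritic cell sum from 10.99 to 11.20 in knockdown and from 11.19 to 11.49 in control libraries. Mrc1, the macrophage mannose receptor, fell (log2 fold change -0.62; adjusted p = 0.0258, limma), and no other leukocyte marker passed. With title style as a covariate Mrc1 did not pass (adjusted p = 0.0504, limma). Directions were mixed: 12 of the 19 markers were negative and 7 positive, with a median of -0.09. Of the 7 macrophage and monocyte markers 4 were negative, among them Mertk (-0.09), and 3 positive: Itgam (0.18), Adgre1 (0.12) and Csf1r (0.0034). Of the 7 dendritic cell markers 5 were negative, among them Cd209a (-0.41), Clec9a (-0.26) and Itgax (-0.24), and 2 positive, Xcr1 (0.41) and Clec10a (0.27). Ptprc differed by -0.26, Cd53 by -0.15, Cd79a by 0.03 and Lck by 0.18. The proximal tubule sum ran from 16.69 to 17.05 in knockdown and from 16.92 to 17.30 in control libraries. The part of leukocytes in the members' values was not tested either.

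The other genes of the complex were counted too. Between H2-K1 and H2-M3, the outermost H2- members with a position (GRCm38 chromosome 17, 33996017 to 37274484), 94 genes were measured, and 74 of them are no members. Of these, 1 rose and none fell (1.35%, beside 3.02% of all genes), with a median log2 fold change of 0.0038. It was C2, a complement component, which held 8.89, 8.82 and 8.87 in the knockdown and 8.00, 8.60, 8.09 and 8.08 in the control libraries. Every knockdown library was above every control library, and control replicate 2 was the highest control. C2 differed by 0.67 on the log2 scale (SE 0.15; adjusted p = 0.0499, limma), with an adjusted p of 0.104 with title style as a covariate.

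The difference between knockdown and control had the same direction within the libraries titled G and within the CB6 pair for 19 of 36 members (52.8%), beside 59.1% of all genes. H2-Q6 differed by -2.03 and -2.68, H2-Q8 by -1.89 and -2.65, and H2-D1 by 0.30 and 0.43, in that order, so these kept their direction in both. H2-Q2 (-1.09 and 0.57), H2-Q9 (0.32 and -0.70), H2-Q1 (-0.15 and 0.76) and H2-Ea-ps (0.13 and -0.67) changed direction. The CB6 pair is 1 library against 1 and has no replicate check.

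**Figure D5:**
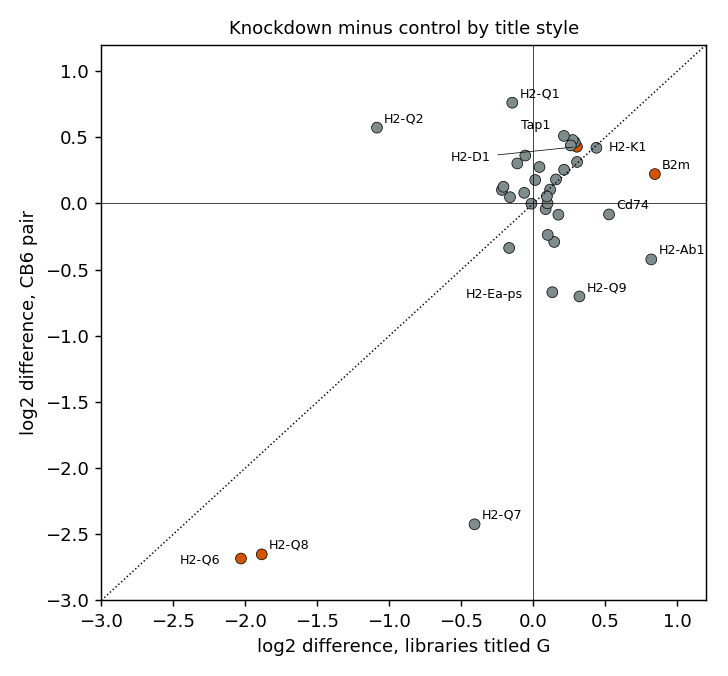
Log2 difference between knockdown and control of each of the 36 members within the 5 libraries titled G (x axis) and within the CB6 pair (y axis), with members past the threshold in orange and a dotted line at equal differences. H2-Q6 and H2-Q8 lie far below 0 on both axes, and H2-Ab1 is positive on the x axis and negative on the y axis.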

How the data were processed

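Glomerular RNA of 7 mice was sequenced, with 1 library per animal. The kit selected poly-A RNA and ribosomal RNA was depleted, per the labels' protocols; BWA and mm10 are named in the submitters' processing notes. The authors deposited values of 12958 symbols for each library on a log scale, read as log2: the base is not stated, and another base would scale every fold change. How reads were counted, normalized or adjusted, and whether strand was used, was not given in the sources used here.

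Groups were compared in limma 3.58.1 (R 4.3.3), using its intensity trend and Benjamini-Hochberg adjustment over all symbols at 0.05. Requiring values over the table minimum in 3 or more libraries removed 0 genes. Positions are 1-based, from GENCODE M21 on GRCm38, the build of mm10. Of the 36 members, 23 had a RefSeq promoter (GRCm38.p6) and 32 a GENCODE transcript for the 50-base comparison on both strands.

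Members past the threshold, with groups that do not overlap or with the highest mean of their role are given by library. List genes are named if past the threshold, else the 2 with the highest mean. Ifngr1, Irf1, Socs3, Ctsl, Emcn, Ptpro, Synpo, Itgam, Adgre1, Csf1r, Cd209a, Xcr1 and Clec10a were named after their values were seen. Library values of H2-L, H2-Q2, H2-Q7, H2-Q9, Tap2, Psmb8, Ciita and the other class II chains were added likewise. One list gene that the rule names is not reported here. Members, lists and alternatives were chosen with earlier results of these data known. The fit was tested on simulated data with independent noise and no adjustment for title style, so that test does not cover such an adjustment.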

Additional observations from a re-analysis of the deposited data

Results flagged for a closer look

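Among the control libraries of the 36 members, 1 value stood apart by Dixon's test for 4 samples. Canx in control replicate 3 was at 13.87, while the other controls lay between 14.01 and 14.03, so the gap took up 0.865 of the range. About 5% of groups are picked out by chance, and 36 were examined. Without control replicate 3 the log2 fold change of Canx was 0.03, against 0.07 with all libraries, and it passed in neither.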

How the results depend on the processing

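Against 4 members past the threshold, 4 passed under quantile normalization, without the filter and without genes at a fill-in value, and 2 passed after scaling to a common median (H2-Q6 and H2-Q8; B2m and H2-D1 at adjusted p = 0.0505, limma). In the upper part of genes by mean 2 passed (B2m and H2-D1; the pair was not in the part tested), without the intensity trend 3, 2 with the title style covariate, and 0 within libraries titled G. Without each replicate in turn 0 to 4 passed. Of all genes 391 passed, 191 with title style, 40 in the libraries titled G and 134 to 480 without each replicate in turn. The median of the members ran from 0.06 to 0.10. H2-Q6 passed in 11 of 14 alternatives, H2-Q8 in 10 of 14, H2-D1 in 5 of 15 and B2m in 5 of 15, with no change of direction.

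The log2 fold change changed sign for Ciita under quantile normalization (-0.000586), for Pdia3 at a common median (-0.00559) and, in the libraries titled G, for Ciita (-0.11), H2-Ea-ps (0.13), H2-Q1 (-0.15) and H2-T23 (-0.056). Without each replicate in turn the sign was not stable for Calr (-0.0777 to 0.0942), Ciita (-0.0614 to 0.11), H2-Ea-ps (-0.20 to 0.0353), H2-Q1 (-0.0371 to 0.32), H2-Q4 (-0.0137 to 0.11), H2-Q5 (-0.10 to 0.0881), H2-Q9 (-0.15 to 0.20), H2-T9 (-0.0473 to 0.0229), H2-T23 (-0.0058 to 0.17), Pdia3 (-0.10 to 0.0606) and Tap2 (-0.24 to 0.0751). Of 252 values with a replicate left out, 213 kept direction and side of the threshold. The causes were not tested. No paired analysis was possible because the labels give no replicate numbers that groups share. Depth is unknown, so counting error has no value here.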

Other observations

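Of the 12922 symbols that are no members, those whose values followed the mean of the class II chains and Cd74 most closely over the 7 libraries were Rnf183 (Pearson correlation 0.984), Stk38 (Pearson correlation 0.980), Eefsec (Pearson correlation 0.969), Zfyve19 (Pearson correlation 0.968) and Dhrsx (Pearson correlation 0.966). These are the highest of 12922 values over 7 libraries that share their normalization, given as a description. The log2 fold changes of these 5 genes ran from 0.09 to 0.25, and none passed the test of knockdown against control (limma, adjusted p from 0.334 to 0.691).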
